A study of Mus musculus with 13 samples.

Results

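Ubiquinone, or coenzyme Q, is the lipid that carries electrons between the complexes of the inner mitochondrial membrane. Its long isoprenoid tail comes from the mevalonate pathway and its ring from tyrosine, and a set of COQ proteins in and at the inner mitochondrial membrane joins and then modifies them. Photoreceptors hold dense stacks of mitochondria in their inner segments and draw much of their ATP from respiration, and the coactivator PGC-1α, encoded by Ppargc1a, is known as a regulator of mitochondrial genes. The genes of this assembly line were followed in the mouse retina through Pdss1 and Pdss2 (the tail synthase), Coq2 (joining of tail and ring), Coq3, Coq5, Coq6 and Coq7 (ring modification), Coq4 and Coq9 (proteins that organise the ring-modifying complex) and Coq10b (a lipid-binding protein that ubiquinone needs to work in the respiratory chain, and no enzyme of its synthesis). A member was taken as measured where a probe set of the array was annotated with its symbol and with no other. Each of 9 of the 10 listed genes had exactly 1 such probe set, among 19937 genes in all. No probe set carried the symbol Pdss1 alone, so Pdss1 was not analysed here.

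RNA from both pooled retinae of 1 mouse was hybridized to 1 Affymetrix Mouse Gene 1.0 ST array. The groups were PGC-1α knockout mice exposed to 15000 lux of white light for 2 h (KO light, 3 arrays), wild type mice exposed likewise (WT light, 3 arrays), knockout mice kept in the dark (KO dark, 3 arrays) and wild type mice kept in the dark (WT dark, 4 arrays). The knockout was global, so every cell of the retina and of the body lacked PGC-1α. The methods give an age of 6 to 13 weeks and 16 h of dark adaptation before light for all mice. They name C57BL/6 NRj mice bought from a breeder as WT, and KO mice on a C57BL/6 background from another laboratory, so the genotypes were not described as littermates. They state a night of recovery in the dark after light, with no hour given for the RNA of the arrays. By the labels the light-exposed mice and WT dark replicate 4 were male and the other dark mice female, whereas the methods name male mice. Xist and Uty followed the labelled sex on all 13 arrays. Sex and light therefore cannot be told apart in any comparison of light with dark.

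The arrays had median intensities of 141 to 146 on the linear scale. A pair of arrays stood apart from their labels. KO light replicate 3 had a mean r over all genes of 0.992 with the other KO light arrays and of 0.997 with WT dark replicates 1 to 3. Each KO dark array also had 0.997 with WT dark replicates 1 to 3, so this r does not tell WT dark from KO dark. WT dark replicate 4 had 0.997 with KO light replicates 1 and 2, and 0.989 with the other WT dark arrays. The ubiquinone genes leaned the same way. KO light replicate 3 lay nearer to the WT dark mean than to that of KO light replicates 1 and 2 for 9 of 9. WT dark replicate 4 lay nearer to KO light replicates 1 and 2 for 7 of 9. For Coq2 these distances were nearly equal, 0.075 against 0.079 for KO light replicate 3 and 0.102 against 0.098 for WT dark replicate 4. KO dark was not compared in this way, and the share over all genes was not counted. Each comparison with KO light is therefore given with the labels as deposited and with the exchanged arrays. There WT dark replicate 4 served as the third KO light array, and KO light replicate 3 was dropped. WT dark always means replicates 1 to 3 unless replicate 4 is named. Ppargc1a had log2 intensities of 10.02, 10.25 and 9.96 in KO light, 9.96, 9.85 and 9.99 in WT light, 10.40, 10.19 and 10.26 in KO dark and 10.03, 10.01 and 10.02 in WT dark, and it checked neither the deletion nor the labels, since no source used here places the probe set against the deleted part. Of the list of reactive glia and retinal stress genes, which holds Gfap, 11 of 11 were measured. Their summed intensity was 6440 to 19254 in KO light as labelled, with the lowest value in replicate 3, and 15526 to 21203 with the exchanged arrays. It was 7022 to 10366 in WT light, 6173 to 6503 in KO dark and 5682 to 6668 in WT dark. The summed intensity of 8 rod markers was 46448 to 49551 in KO light as labelled and 45457 to 49551 with the exchanged arrays, against 51665 to 53474 in WT light. No intensity on any array was at or under 0, so an intensity above 0 does not show that a marker was detected.

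Coq7 and Coq10b were the members that passed the test in any of the 5 comparisons, both with the exchanged arrays, and their promoters are shown for that reason. They are the RefSeq sequences of GRCm38.p6, 250 bases before to 50 bases after the annotated start, at chr7:118533307-118533606 on the minus strand for Coq7 and chr1:55052520-55052819 on the plus strand for Coq10b. Capitals mark TGACG on either strand (CGTCA on the strand shown), the core letters of the cAMP response element, which factors of the CREB family bind.
Coq7: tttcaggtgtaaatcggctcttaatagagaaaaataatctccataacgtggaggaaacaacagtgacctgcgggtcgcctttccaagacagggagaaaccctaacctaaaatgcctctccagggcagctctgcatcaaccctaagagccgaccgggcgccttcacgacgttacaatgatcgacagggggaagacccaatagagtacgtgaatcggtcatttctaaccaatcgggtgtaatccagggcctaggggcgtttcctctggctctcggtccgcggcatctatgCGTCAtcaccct
Coq10b: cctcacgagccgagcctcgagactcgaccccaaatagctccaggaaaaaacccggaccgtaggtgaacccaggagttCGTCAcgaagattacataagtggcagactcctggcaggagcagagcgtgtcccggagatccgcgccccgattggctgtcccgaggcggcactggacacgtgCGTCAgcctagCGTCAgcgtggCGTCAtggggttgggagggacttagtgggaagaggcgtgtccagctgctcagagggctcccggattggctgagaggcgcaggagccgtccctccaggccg
The Coq10b window held 4 matches, 3 of them between bases 179 and 205 of the window, before the start, and the Coq7 window held 1, at bases 289 to 293, after the start. Of 32851 mouse promoter windows of this length 20.8% held at least 1 match and 0.231% held 4 or more. Among the other members with a window, Coq9 had 2 matches, Coq2 and Coq6 had 1 each, and Pdss1, Pdss2, Coq3 (2 windows) and Coq4 had 0. Coq5 had no window in the table. The CCAAT box, found in 37.4% of windows, occurred 3 times for Coq6 and 2 times each for Coq7 and Coq10b on either strand. None of the members' windows held the estrogen-related receptor site TCAAGGTCA (0.423% of windows), the NRF1 site (1.27%) or the AP-1 site TGANTCA (7.81%), which says only that these exact letters are not in the windows. The motifs were chosen after these windows had been seen, and a match is a description of letters, not a bound site.

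Expression of the 9 measured genes was first set side by side across the groups, as log2 intensity, whose differences are read within a gene and never between genes. Pooled over the 4 groups, the standard deviation between arrays of a group was 0.06 (Coq6) to 0.17 (Coq10b) log2 units with a median of 0.07. It was 0.05 (Pdss2) to 0.07 (Coq2) with the exchanged arrays. For Coq10b the array farthest out was KO light replicate 3. With 3 arrays a side, 0.1 is the smallest p that an exact two-sided permutation can reach, so differences were tested with limma across all 19937 genes. Called below means an adjusted p (Benjamini-Hochberg) under 0.05 with a ratio of 1.2 or more, or of 0.87 or less, as the methods set it. Each group enters more than 1 comparison, so the comparisons share arrays.

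**Figure D1:**
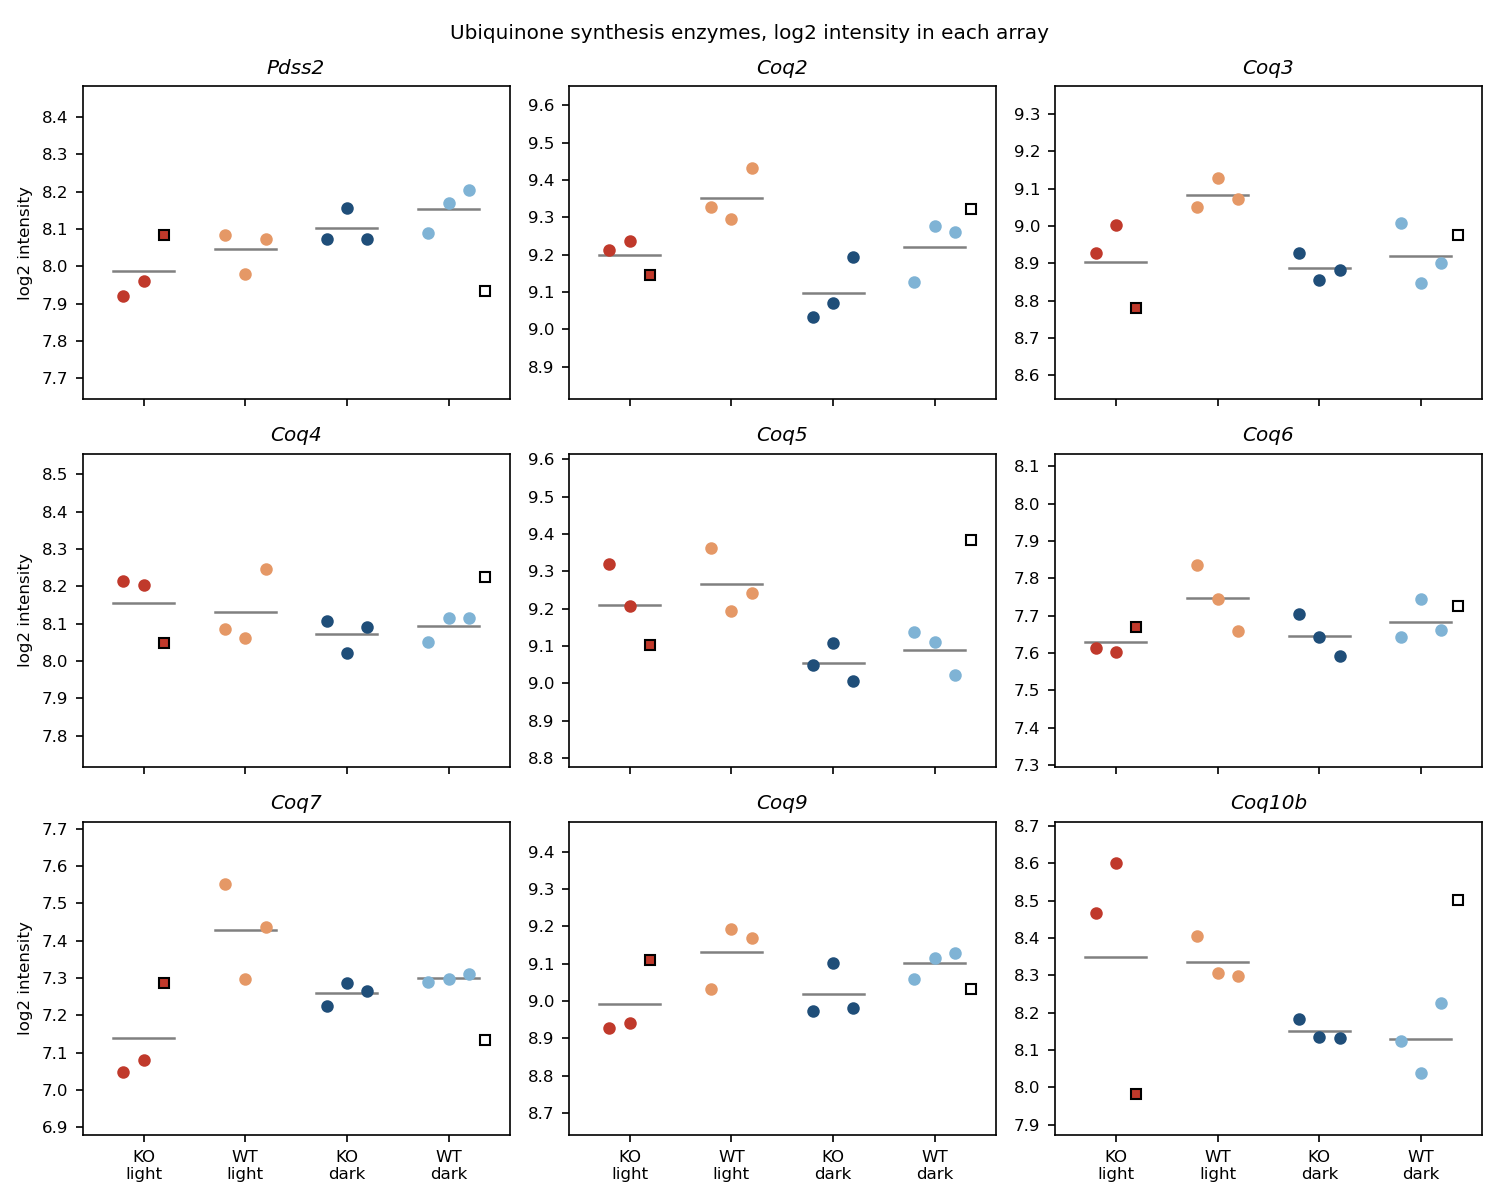
Log2 intensity of each measured gene on each array, in the 4 groups, with 1 panel per gene. Squares are the arrays labelled KO light replicate 3 (filled) and WT dark replicate 4 (open), and grey lines are means of arrays 1 to 3. For Coq10b the filled square sits at 7.98, below both other KO light arrays, and the open square at 8.50, level with them.

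The tail of ubiquinone is built by a synthase of PDSS1 and PDSS2 subunits, and COQ2 then attaches it to the ring precursor hydroxybenzoate. Pdss2 had log2 intensities of 7.92, 7.96 and 8.08 in KO light, 8.08, 7.98 and 8.07 in WT light, 8.07, 8.16 and 8.07 in KO dark and 8.09, 8.17 and 8.21 in WT dark (7.93 in its replicate 4). Its group means ran in the order KO light, WT light, KO dark and WT dark, with neighbours closer than the spread between arrays, and the highest mean was in WT dark. Coq2 had 9.21, 9.24 and 9.15 in KO light, 9.33, 9.29 and 9.43 in WT light, 9.03, 9.07 and 9.19 in KO dark and 9.13, 9.28 and 9.26 in WT dark (9.32 in its replicate 4). Its lowest mean was in KO dark and its highest in WT light, so that tail synthase and transferase stood in opposite orders across light and dark.

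The ring is then decorated by hydroxylases and methyltransferases. COQ6 is a flavin hydroxylase, COQ3 methylates oxygens and COQ5 a carbon of the ring, and COQ7 is the di-iron hydroxylase of the last hydroxylation. Coq3 had 8.93, 9.00 and 8.78 in KO light, 9.05, 9.13 and 9.07 in WT light, 8.93, 8.85 and 8.88 in KO dark and 9.01, 8.85 and 8.90 in WT dark, with 8.98 in WT dark replicate 4. WT light stood above the other groups, whose means of 8.90 ± 0.11 (KO light), 8.89 ± 0.04 (KO dark) and 8.92 ± 0.08 (WT dark; SD, n = 3 each) lay within their spread. Coq5 had 9.32, 9.21 and 9.10 in KO light, 9.36, 9.19 and 9.24 in WT light, 9.05, 9.11 and 9.01 in KO dark and 9.14, 9.11 and 9.02 in WT dark, with 9.38 in WT dark replicate 4. Light arrays of both genotypes tended to the high side of Coq5, with KO light replicate 3 as the lowest of the 6. Coq6 varied little, between 7.59 (KO dark replicate 3) and 7.84 (WT light replicate 1) over the 12 arrays, and no group stood apart from the others.

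Coq7 was the ring enzyme with the widest difference of the genotype means after light, in either set of arrays. Its log2 intensity was 7.05, 7.08 and 7.29 in KO light, 7.55, 7.30 and 7.44 in WT light, 7.22, 7.29 and 7.26 in KO dark and 7.29, 7.30 and 7.31 in WT dark. KO light replicates 1 and 2 were lower than every other array of the 12, whereas KO light replicate 3 lay among the dark arrays. WT dark replicate 4, at 7.13, was the next lowest. The group means were 7.14 ± 0.13 in KO light (7.09 ± 0.04 with the exchanged arrays), 7.43 ± 0.13 in WT light, 7.26 ± 0.03 in KO dark and 7.30 ± 0.01 in WT dark (SD, n = 3 each), so the dark groups were neighbours within 0.04 log2 units and the light groups lay on either side of them.

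COQ4 and COQ9 hold the complex together, and COQ9 binds the lipid intermediate and presents it to COQ7. Coq4 averaged 8.15 ± 0.09 in KO light (8.21 ± 0.01 with the exchanged arrays), 8.13 ± 0.10 in WT light, 8.07 ± 0.04 in KO dark and 8.09 ± 0.04 in WT dark. Coq9 averaged 8.99 ± 0.10 in KO light (8.97 ± 0.06 with the exchanged arrays), 9.13 ± 0.09 in WT light, 9.02 ± 0.07 in KO dark and 9.10 ± 0.04 in WT dark (SD, n = 3 each). For either gene the whole span of the means was 0.14 log2 units or less as labelled, and the arrays of neighbouring groups overlapped.

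Coq10b, the lipid-binding partner of ubiquinone itself, was the most variable member. It had 8.47, 8.60 and 7.98 in KO light, 8.40, 8.31 and 8.30 in WT light, 8.18, 8.14 and 8.13 in KO dark and 8.12, 8.04 and 8.23 in WT dark, with 8.50 in WT dark replicate 4. All 3 WT light arrays and 2 of the 3 KO light arrays were above every dark array numbered 1 to 3, and KO light replicate 3 was below all of them. The KO light mean was 8.35 ± 0.33 as labelled and 8.52 ± 0.07 with the exchanged arrays, against 8.34 ± 0.06 in WT light, 8.15 ± 0.03 in KO dark and 8.13 ± 0.09 in WT dark (SD, n = 3 each).

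The effect of the knockout in the unstressed retina was addressed by KO dark against WT dark. None of the 9 genes was called, against 0.0752% of all genes. KO dark had the lower mean for 8 of 9 genes. The median log2 difference was -0.04 over the 9 genes and 0.00 over all genes, and limma gave no member an unadjusted p under 0.05 together with a ratio past the thresholds. The largest difference was that of Coq2, -0.12 (SE 0.06, limma adjusted p = 0.756). The 9 ratios lay between 0.919 and 1.01, and their 95% intervals ran from 0.838 at the lowest (Coq2) to 1.22 at the highest (Coq10b). Coq7 was the 1 gene with its 3 KO dark arrays all below the 3 WT dark arrays, a separation that 7.45% of all genes showed in that direction, with a log2 difference of -0.04 (adjusted p = 0.983). The exchanged arrays leave these 6 arrays as they are and change the estimate of spread alone. Again none of the 9 was called, against 0.878% of all genes.

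KO light against WT light asked whether the genotypes differed after light stress. As labelled, none of the 9 genes was called, against 0.176% of all genes, and limma gave 1 gene an unadjusted p under 0.05 with a ratio past the thresholds. That gene was Coq7, with a log2 difference of -0.29 (SE 0.07, ratio 0.818 with a 95% interval of 0.734 to 0.911, adjusted p = 0.132). Means of 7 of 9 genes were lower in KO light, the median log2 difference being -0.12 over the 9 genes and -0.01 over all genes. Coq3 had -0.18 (adjusted p = 0.261), Coq2 -0.15 (adjusted p = 0.328), Coq9 -0.14 (adjusted p = 0.391) and Coq6 -0.12 (adjusted p = 0.398). Coq10b, at 0.01, and Coq4, at 0.02, were the members with a higher mean in KO light. The arrays of the genotypes did not overlap for Coq2, Coq3 and Coq7, all lower in KO light, where 8.45% of all genes separated in that direction.

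Coq7 fell, with the exchanged arrays, in KO light relative to WT light, by 0.34 on the log2 scale (SE 0.06, ratio 0.789 with a 95% interval of 0.725 to 0.860, adjusted p = 0.00212). It was the 1 member of 9 called, against 8.23% of all genes and 3.66% called lower. The share of the 9 called in either direction was near the 8.23%, and the share called lower above the 3.66%, on 1 gene. Coq7 was called in that direction on leaving out each of the 12 arrays of that set in turn, at adjusted p-values up to 0.0114. Leaving out WT dark replicate 4 there is the same fit as dropping KO light replicate 3 without a replacement (-0.36, limma adjusted p = 0.00655). Leaving out an array of KO dark or WT dark left the difference at -0.34 and changed the estimate of spread alone. In the 21 alternatives that kept KO light replicate 3 under its label Coq7 was not called, at adjusted p-values of 0.105 to 0.558. Coq10b had a difference of 0.19 with the exchanged arrays (ratio 1.14, adjusted p = 0.0465), which passed on p and missed on ratio. The difference of Coq9, the partner that presents the substrate to COQ7, was -0.16 (adjusted p = 0.0740), and it was called in 1 of the 12 sets with an array left out. Coq3 had -0.12 (adjusted p = 0.151), Pdss2 -0.11 (limma adjusted p = 0.170), Coq6 -0.10 (limma adjusted p = 0.287) and Coq2 -0.09 (limma adjusted p = 0.343). Coq4 and Coq5 had 0.08 and 0.04. Means of 6 of 9 genes were lower in KO light, with a median log2 difference of -0.10 (-0.02 over all genes). Arrays of the genotypes were apart for Coq10b (higher in KO light, as for 13.9% of all genes) and for Pdss2, Coq3 and Coq7 (lower, as for 15.4%). The reactive glia and stress genes moved beside these values, with 11 of 11 called higher in KO light with the exchanged arrays and 0 of 11 as labelled. Of all 19937 genes 910 were called higher with the exchanged arrays and 24 as labelled. With the exchanged arrays 4 of 6 cone markers and 4 of 8 measured rod markers were called lower. In whole retina fewer cells of a type and less RNA per cell cannot be told apart, and the part of these cell types in the Coq7 difference was not tested.

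**Figure D2:**
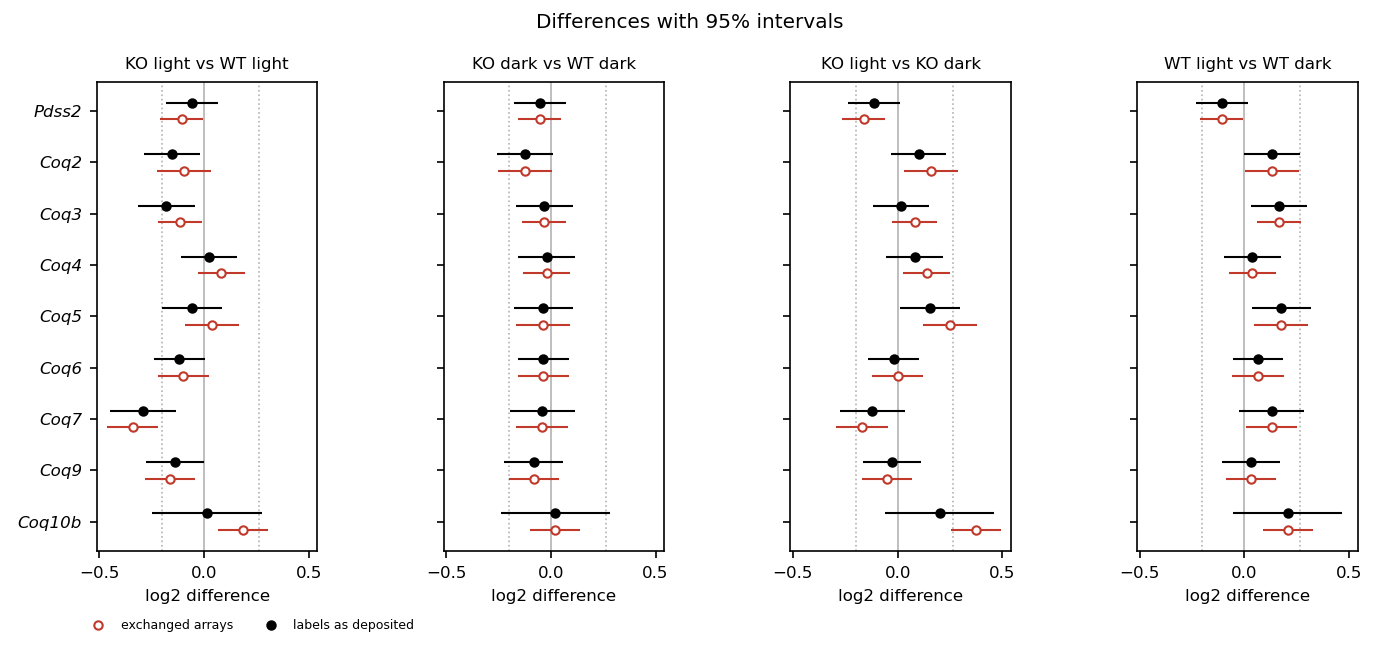
Log2 difference of each measured gene, with its 95% interval from limma, in the 4 comparisons of groups. Filled black points use the labels as deposited and open red points the exchanged arrays, and dotted lines mark ratios of 1.2 and 0.87. Coq7 sits at -0.29 and -0.34 in KO light against WT light, and Coq10b at 0.20 and 0.37 in KO light against KO dark.

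KO light against KO dark gave the light response of the knockout retina. As labelled, none of the 9 genes was called, against 0.1% of all genes, with 5 means higher and 4 lower in KO light and a median log2 difference of 0.02 (0.00 over all genes). Coq10b had 0.20 (SE 0.12, ratio 1.15 with a 95% interval of 0.959 to 1.38, adjusted p = 0.492) and Coq5 0.15 (adjusted p = 0.318), while Coq7 had -0.12 (adjusted p = 0.492) and Pdss2 -0.11 (adjusted p = 0.406). No gene of the 9 had separate arrays, against 13.1% of all genes.

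Coq10b rose in KO light relative to KO dark with the exchanged arrays, by 0.37 on the log2 scale (SE 0.06, ratio 1.30 with a 95% interval of 1.19 to 1.41, adjusted p = 0.000511). It was the 1 member of 9 called, against 13.3% of all genes and 7.01% called higher. The share of the 9 called in either direction was near the 13.3%, and the share called higher above the 7.01%, on 1 gene. Coq10b was called on leaving out each of the 12 arrays of that set in turn, with differences of 0.33 to 0.40. Leaving out WT dark replicate 4 there is the same fit as dropping KO light replicate 3 without a replacement (0.38, limma adjusted p = 0.00239). Leaving out an array of WT dark or WT light left the difference at 0.37 and changed the estimate of spread alone. Coq10b was called in none of the 21 alternatives that kept KO light replicate 3 under its label. A further 3 members had an adjusted p under 0.05 and a ratio inside the thresholds. They were Coq5 with 0.25 (ratio 1.19, adjusted p = 0.00981, called in 2 of the 12 sets with an array left out), Pdss2 with -0.16 (ratio 0.893, adjusted p = 0.0269) and Coq7 with -0.17 (ratio 0.888, adjusted p = 0.0486). Coq2 and Coq4 had 0.16 (adjusted p = 0.0763) and 0.14 (adjusted p = 0.0721). Of the 9 means 6 were higher and 3 lower in KO light, with a median log2 difference of 0.08 (-0.01 over all genes). Arrays of light and dark were separate for Coq2, Coq4, Coq5 and Coq10b (higher in KO light, as for 20% of all genes) and for Pdss2 and Coq7 (lower, as for 18%). Light arrays were male and dark arrays female here. With the exchanged arrays 11 of 11 reactive glia and stress genes were called higher (7.01% of all genes). Of the cone markers 5 of 6 were called lower (1256 of all 19937 genes). The part of sex, or of the cells these genes mark, in the Coq10b difference was not tested.

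WT light against WT dark gave the light response of the wild type retina. None of the 9 genes was called, against 0.431% of all genes, although 8 of 9 means were higher in WT light and the median log2 difference was 0.13 over the 9 genes and 0.02 over all genes. Coq10b had 0.21 (SE 0.12, ratio 1.15, adjusted p = 0.403), Coq5 0.18 (adjusted p = 0.203) and Coq3 0.17 (adjusted p = 0.208), whereas Pdss2 had -0.11 (adjusted p = 0.357). The arrays were separate for Coq2, Coq3, Coq5 and Coq10b, all higher in WT light (17.5% of all genes separated in that direction), and for Pdss2, lower (10.7%). With the smaller spread of the exchanged arrays 4.41% of all genes and again none of the 9 were called. There Coq10b, at the same 0.21, had an adjusted p of 0.0414 with a ratio inside the thresholds, and Coq3 had an adjusted p of 0.0595.

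Whether light acted differently in the genotypes was tested by the interaction, which subtracts the light response in WT from the one in KO and was called on an adjusted p under 0.05 alone. By the labels sex changed with light in both genotypes, so light and sex cannot be told apart here either. None of the 9 genes was called, against 0.0602% of all genes. Coq7 had the largest size, -0.25 (SE 0.10, adjusted p = 0.663), from a light response of -0.12 in KO and 0.13 in WT retinae, and the other 8 lay between -0.15 (Coq3) and 0.04 (Coq4). With the exchanged arrays Coq7 had -0.30 (SE 0.08, adjusted p = 0.0687) and Coq10b 0.17 (SE 0.08, adjusted p = 0.324), and none of the 9 was called, against 2.78% of all genes. Without WT light replicate 2 as well, whose Coq7 value of 7.30 was the lowest of its group, Coq7 had -0.37 and an adjusted p of 0.0263. In that fit 267 of 19937 genes were called. It was the 1 fit that called Coq7 among 13, the exchanged arrays whole and with each array left out. Across these 13 fits the limma adjusted p of Coq7 ran up to 0.142. For Coq10b the 95% interval of the interaction with the exchanged arrays, as a ratio of ratios, was 0.997 to 1.26.

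**Figure D3:**
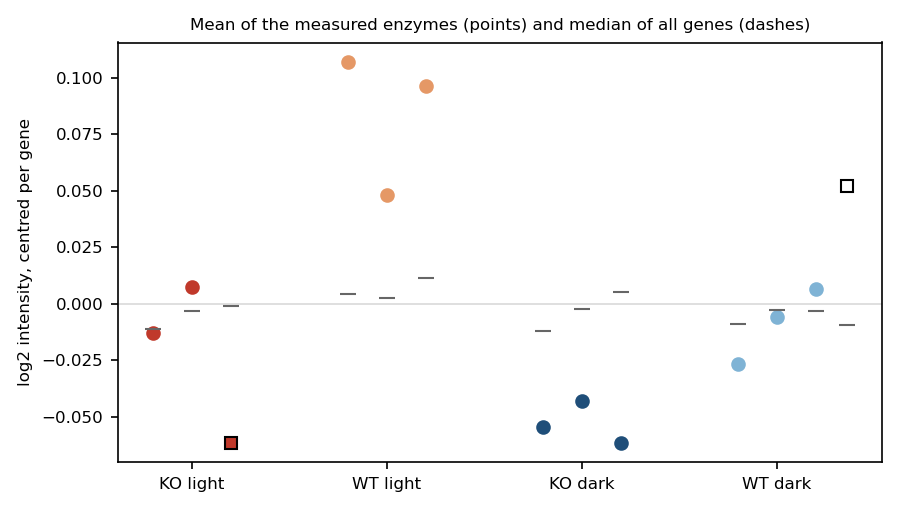
Mean log2 intensity of the 9 measured genes on each array, each gene centred on its own mean (points), beside the median of all genes centred likewise (dashes). The WT light arrays sit between 0.05 and 0.11 and the KO dark arrays between -0.06 and -0.04, while the medians of all genes stay close to 0.

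Taken as 1 profile, with each gene centred on its own mean, the 9 genes averaged -0.01, 0.01 and -0.06 log2 units in KO light, 0.11, 0.05 and 0.10 in WT light, -0.05, -0.04 and -0.06 in KO dark and -0.03, -0.01 and 0.01 in WT dark, with 0.05 in WT dark replicate 4. As labelled, WT light was the highest group and its arrays overlapped with none of the other 9 arrays compared, and the KO light arrays overlapped with both dark groups, with KO dark through replicate 3 alone. With the exchanged arrays KO light lay above every KO dark array, and its highest array (0.05) was above the lowest WT light array. This profile is a description of 9 genes that did not all move together: Pdss2 ran against Coq2 and Coq5, and Coq7 against Coq10b in KO light. Over the 12 arrays the genes whose levels ran closest to it were Gins4 (Pearson r = 0.958), Atraid (0.957), Parl (0.954), Zc3hc1 (0.952) and Tmem41b (0.948). Without KO light replicate 3, over 11 arrays, they were Parl (0.971), Snx11 (0.967), Ess2 (0.967), Gins4 (0.955) and Atraid (0.954). These are descriptions over arrays that share groups, with no test. Parl encodes a rhomboid protease of the inner mitochondrial membrane, and the genes named here were not compared by function.

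The surrounding pathway was read from 4 lists. They held proteins that handle or regulate coenzyme Q (13 of 15 listed genes measured), enzymes of isoprenoid supply (10 of 12), enzymes of ring supply from phenylalanine and tyrosine (3 of 4) and proteins that pass electrons to or from ubiquinone (22 of 22). As labelled, none of their genes was called in any of the 5 comparisons. In KO light against WT light 3 of the 13 coenzyme Q handling genes were called with the exchanged arrays, all lower in KO light, where 3.66% of all genes were called lower. The median log2 difference over the list was -0.09. Coq8a, the atypical kinase-like protein of the COQ complex, had 7.94, 7.97 and 8.10 in KO light with the exchanged arrays, the last from the array labelled WT dark replicate 4, and 8.20 in KO light replicate 3, against 8.18, 8.30 and 8.30 in WT light. Its difference was -0.23 (adjusted p = 0.196) as labelled and -0.26 (SE 0.05, adjusted p = 0.00665) with the exchanged arrays. Hpdl, which in human cells makes a precursor of the ring, had -0.18 (adjusted p = 0.333) as labelled and -0.30 (adjusted p = 0.0170) with the exchanged arrays. The inner membrane protease Oma1 had -0.18 (adjusted p = 0.239) as labelled and -0.23 (adjusted p = 0.00786) with the exchanged arrays. In KO light against KO dark 1 of the 13 was called with the exchanged arrays, Hpdl, with -0.15 (adjusted p = 0.380) as labelled and -0.27 (adjusted p = 0.0174) with the exchanged arrays. Of all 19937 genes 1256 were called lower in that comparison with the exchanged arrays.

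Enzymes of isoprenoid supply were called in the upward direction against KO dark. There 4 of 10 genes rose in KO light with the exchanged arrays and none fell, where 7.01% of all genes were called higher. All 10 means were higher, with a median log2 difference of 0.20 (0.10 as labelled). In WT light against WT dark 9 of 10 means were higher as well, with a median log2 difference of 0.13. Hmgcs1 had 0.20 in that comparison, Idi1 0.19 and Fdps 0.21, and none of these was called. Pmvk, a kinase of the mevalonate pathway, had 8.56, 8.52 and 7.91 in KO light and 8.59 in the array labelled WT dark replicate 4, against 8.11, 8.13 and 8.24 in WT light, 7.66, 7.69 and 7.79 in KO dark and 7.69, 7.89 and 7.65 in WT dark. It rose by 0.85 relative to KO dark (adjusted p = 4.88e-06) and by 0.40 relative to WT light (adjusted p = 0.00159) with the exchanged arrays, and as labelled those differences were 0.62 (adjusted p = 0.116) and 0.17 (adjusted p = 0.647). In WT light against WT dark it had 0.42, with an adjusted p of 0.159 as labelled and of 0.00290 with the spread of the exchanged arrays, where it was called. Its interaction was 0.20 (adjusted p = 0.878) as labelled and 0.43 (adjusted p = 0.0252) with the exchanged arrays. Hmgcs1, which makes HMG-CoA for the mevalonate pathway, had 0.31 relative to KO dark (adjusted p = 0.168) as labelled and 0.38 (adjusted p = 0.00180) with the exchanged arrays. Idi1, the isopentenyl diphosphate isomerase, had 0.29 (adjusted p = 0.0534) as labelled and 0.31 (adjusted p = 0.000337) with the exchanged arrays. For Fdps, the farnesyl diphosphate synthase, the differences were 0.19 (adjusted p = 0.351) as labelled and 0.30 (adjusted p = 0.00197) with the exchanged arrays. These enzymes also feed sterol synthesis. In KO dark against WT dark Idi1 had -0.25, with an adjusted p of 0.0857 as labelled and of 0.0173 with the spread of the exchanged arrays. Of ring supply, Hpd was called lower in KO light than in KO dark with the exchanged arrays (-0.25, adjusted p = 0.0487), where 13.3% of all genes were called in either direction, and had -0.15 (adjusted p = 0.490) as labelled, and the remaining measured genes were not called.

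**Figure D4:**
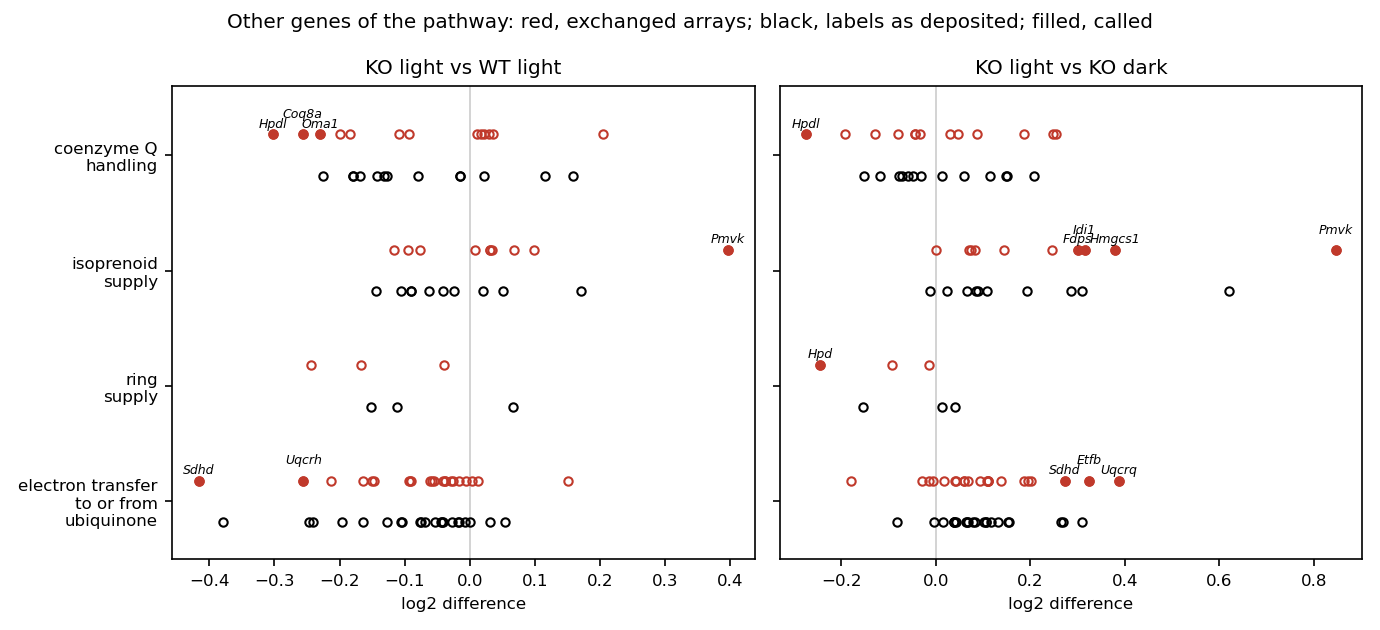
Log2 difference of every measured gene of the 4 lists in KO light against WT light and KO light against KO dark, in black with the labels as deposited and in red with the exchanged arrays. Filled points were called, and all filled points are red. Pmvk sits highest with 0.40 and 0.85, and Sdhd lowest against WT light with -0.42.

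Of the 22 genes that pass electrons to or from ubiquinone, 2 were called lower in KO light than in WT light with the exchanged arrays and none higher. Of all genes 3.66% were called lower and 8.23% in either direction. The share of the list called in either direction was near the 8.23%, and the share called lower was above the 3.66%, on 2 genes. The median log2 difference over the list was -0.06. Sdhd, a membrane anchor of succinate dehydrogenase (complex II), had 8.38, 8.43 and 8.54 in KO light and 8.43 in the array labelled WT dark replicate 4, against 8.96, 8.79 and 8.73 in WT light, 8.06, 8.26 and 8.10 in KO dark and 8.67, 8.54 and 8.57 in WT dark. KO arrays were below the WT arrays of the same light condition throughout. The difference after light was -0.38 (adjusted p = 0.0677) as labelled and -0.42 (adjusted p = 0.00164) with the exchanged arrays. In the dark it was -0.46, at an adjusted p of 0.0510 as labelled and of 0.00411 with the spread of the exchanged arrays. Uqcrh, a small subunit of complex III, had the same order of genotypes, with -0.25 after light (adjusted p = 0.125) as labelled and -0.26 (adjusted p = 0.00946) with the exchanged arrays. Its difference in the dark was -0.26, at an adjusted p of 0.133 as labelled and of 0.0463 with the spread of the exchanged arrays. In KO light against KO dark 3 of the 22 were called higher with the exchanged arrays, against 7.01% of all genes. Uqcrq of complex III had 0.27 (adjusted p = 0.194) as labelled and 0.39 (adjusted p = 0.000109) with the exchanged arrays. Etfb, a subunit of the electron transfer flavoprotein, had 0.27 (adjusted p = 0.0907) as labelled and 0.32 (adjusted p = 0.000395) with the exchanged arrays. Sdhd, the third, had 0.31 (adjusted p = 0.138) as labelled and 0.27 (adjusted p = 0.0112) with the exchanged arrays. In WT light against WT dark 18 of the 22 means were higher as well, with a median log2 difference of 0.10. There Uqcrq had 0.24, Sdhd 0.23 and Etfb 0.19, and none of these was called. Uqcrb of complex III had 0.29 in WT light against WT dark, at an adjusted p of 0.0942 as labelled and of 0.0235 with the spread of the exchanged arrays, where it was the 1 of 22 called, against 4.41% of all genes. None of the genes of the 4 lists passed the test in the fit with all labels as deposited.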

How the data were processed

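Retinal RNA of 13 mice was measured on Affymetrix Mouse Gene 1.0 ST arrays. The deposited table holds an intensity per probe set and array, linear in scale, made by the authors from CEL files with Partek and Bioconductor per the methods. The submitters' processing notes name Partek. Its version, the summarization, the normalization between arrays and the genome build are unstated there and in the methods. The labels name Trizol for extraction and the methods another kit. A background per probe set was not used, and the number of arrays limits the precision.

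Values were taken to log2. Of 34760 probe sets 21640 carry 1 symbol, 1321 several and 11799 none in the platform annotation. Averaging those with 1 symbol within a gene left 19937 genes, and 21553 of these probe sets matched the RefSeq table of GRCm38.p6. limma 3.58.1 in R 4.3.3 fitted 1 model of the 4 groups to 12 arrays (8 residual degrees of freedom), without WT dark replicate 4, since the study's legends give 3 samples. The Benjamini-Hochberg adjustment ran over every gene tested in a comparison. The fit was tested on simulated data. The labels call the mice biological replicates. Among 78 pairs of arrays 0 held identical values.

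Members, lists and motifs were chosen with earlier results of these data known, and the exchanged arrays are an alternative that came from those results. All members are named, and of the lists every called gene, at most 4 per list and comparison by size. Alternatives were other sets of arrays, each array left out, the replicate block, unmoderated variances (the ANOVA of the methods), quantile or median normalization, a filter on dim genes, log2(value + 16), single probe sets, fits of 2 groups and a variance trend. Leaving out each array of the exchanged set was added after seeing the data.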

Additional observations from a re-analysis of the deposited data

Results flagged for a closer look

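Coq7 in WT dark was the 1 of 9 genes whose 4 arrays included an outlying value. The array labelled WT dark replicate 4 had 7.13, below 7.29, 7.30 and 7.31, and its gap to the nearest array was 0.885 of the group's range, past Dixon's 95% limit for 4 samples. Chance passes this limit in about 1 of 20 groups.

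The same array, which the comparisons as labelled left out, lay above WT dark replicates 1 to 3 for 4 genes. It had a log2 intensity of 9.32 for Coq2, 8.22 for Coq4, 9.38 for Coq5 and 8.50 for Coq10b, against highest values of 9.28, 8.11, 9.14 and 8.23 in WT dark replicates 1 to 3. The share of all genes for which this array lay highest was not counted, so the count is not particular to these genes. Over all genes the array had a mean r of 0.989 with those replicates.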

How the results depend on the processing

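As labelled, 0 of the 9 genes were called in each of the 5 comparisons, and this held under all alternatives that kept KO light replicate 3 under its label. With the exchanged arrays 1 gene was called in KO light against WT light (Coq7) and 1 in KO light against KO dark (Coq10b), and leaving out each array in turn gave 0 to 1 called genes as labelled, the 1 in either comparison being without KO light replicate 3. With the exchanged arrays and each of their 12 arrays left out, 1 to 2 genes were called in either comparison (the second being Coq9 without WT light replicate 1, and Coq5 without KO dark replicate 2 or KO light replicate 2) and 0 to 1 in the interaction (Coq7 without WT light replicate 2). The cause of the difference between the sets was not tested. Of 1026 differences under the 23 planned settings 50 had another sign than as labelled, none of them called, up to a size of 0.18. The replicate block called 0 of the 9 genes in each of the 5 comparisons and 13, 11, 11, 17 and 3 of all genes in KO dark against WT dark, KO light against WT light, KO light against KO dark, WT light against WT dark and the interaction. Same-numbered arrays deviated together at r = -0.19 to 0.22, over 0.1 in 3 of 18 pairs, and 3 of 12 arrays correlated best with their own number, so the numbers were not taken as pairing. Of all genes, KO light against WT light called 35 as labelled, 1640 with the exchanged arrays, 1045 without KO light replicate 3, 5 without moderated variances and 0 in a fit of these 2 groups alone.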

Other observations

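Some COQ-related genes outside the naming rule were looked at after their values were seen. Coq10a, the other mouse homologue of the yeast lipid-binding protein Coq10, averaged 9.08 ± 0.05 in KO light (9.10 ± 0.06 with the exchanged arrays), 9.06 ± 0.04 in WT light, 9.14 ± 0.01 in KO dark and 9.13 ± 0.01 in WT dark (SD, n = 3 each). Its light response in KO retinae was -0.06 as labelled (limma adjusted p = 0.614), beside 0.20 for Coq10b, and -0.04 with the exchanged arrays (limma adjusted p = 0.514), beside 0.37 for Coq10b, and the difference between the homologues was not tested. Coq8b, the paralogue of Coq8a, had 8.32, 8.24 and 8.14 in KO light and 8.28 in the array labelled WT dark replicate 4, against 7.95, 8.12 and 8.15 in WT light. Its difference with the exchanged arrays was 0.20 (limma adjusted p = 0.0432, under the ratio threshold), beside -0.26 for Coq8a, and as labelled it was 0.16 (limma adjusted p = 0.353).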
